A study of Mus musculus with 10 samples.

Results

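Peg3 and a group of imprinted genes that are often described together as an imprinted gene network were followed in mouse keratinocytes without RhoA, a GTPase of the actin cytoskeleton. The members were 10 gene symbols, Peg3, Usp29, Zim1, Igf2, H19, Dlk1, Plagl1, Cdkn1c, Grb10 and Mest, and every probe set that the platform annotation gives to exactly 1 of these symbols was taken, each on its own. This gave 20 of the 45037 probe sets of the array, for 9 of the 18193 genes that have a probe set of their own: 5 for Peg3, 3 each for Plagl1 and Grb10, 2 each for Usp29, Igf2 and Dlk1, and 1 each for Zim1, Cdkn1c and Mest. H19 had none under this rule. Peg3 was singled out because its signal was low in cultured RhoA-null cells, and the other symbols were grouped with it when that result was known. For the comparison of cultured RhoA-null with cultured control cells, the values of all members are therefore a description, and no p-value is given for them there.

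The tested cells, written KO here, carried RhoA fl/fl alleles with K5 cre, a Cre recombinase driven from the keratin 5 promoter, which is active in basal keratinocytes. The controls, called Wildtype in the titles and WT here, carried RhoA fl/+ with the same K5 cre, so they too had Cre and 1 floxed allele. Cultured primary keratinocytes gave 3 KO and 3 WT arrays, and keratinocytes freshly isolated from epidermis gave 2 KO and 2 WT arrays. The replicates are titled biological but no animals are named, so each p-value reflects only how far these samples spread. Neither age nor strain is used here.

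An imprinted gene is expressed from 1 parental allele, because DNA methylation set in the germ line marks the maternal and paternal copies differently. Many imprinted genes act on growth: paternally expressed ones such as Igf2 and Mest tend to promote it in the embryo, and maternally expressed ones such as Cdkn1c and Grb10 tend to restrain it. The network was described in mice around Plagl1, a zinc finger transcription factor, and its members are high in fetal and neonatal mouse tissues and fall in most organs after birth. Peg3 encodes a paternally expressed zinc finger protein, also called Pw1, that marks several kinds of stem and progenitor cells in adult mouse tissues, cells of the hair follicle among them.

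Peg3 and Usp29 lie head to head. Their promoter windows in RefSeq (build GRCm38.p6, 250 bases before to 50 after a gene's start) share 263 bases, and the annotated starts are 164 bases apart. Windows were found for 8 of the 10 members, 14 in all. The windows below belong to the 3 members of which a probe set separated cultured KO from cultured WT arrays without overlap. For Grb10 and Mest, which have 2 and 3 windows, the one with the most CpG is shown, the first of 2 equal ones for Mest.
Peg3, chr7:6730370-6730669, minus strand: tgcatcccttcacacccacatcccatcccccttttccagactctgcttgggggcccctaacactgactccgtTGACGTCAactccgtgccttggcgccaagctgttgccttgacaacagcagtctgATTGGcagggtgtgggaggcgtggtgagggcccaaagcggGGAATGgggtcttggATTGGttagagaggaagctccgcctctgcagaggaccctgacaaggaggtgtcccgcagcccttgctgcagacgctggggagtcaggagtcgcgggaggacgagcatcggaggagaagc
Grb10, chr11:12037371-12037670, minus strand: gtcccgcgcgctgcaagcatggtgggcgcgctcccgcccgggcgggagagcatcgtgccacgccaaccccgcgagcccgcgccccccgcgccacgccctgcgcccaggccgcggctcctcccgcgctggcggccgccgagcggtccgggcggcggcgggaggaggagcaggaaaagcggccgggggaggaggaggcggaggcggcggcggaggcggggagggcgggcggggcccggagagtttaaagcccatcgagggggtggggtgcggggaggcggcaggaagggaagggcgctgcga
Mest, chr6:30737800-30738099, plus strand: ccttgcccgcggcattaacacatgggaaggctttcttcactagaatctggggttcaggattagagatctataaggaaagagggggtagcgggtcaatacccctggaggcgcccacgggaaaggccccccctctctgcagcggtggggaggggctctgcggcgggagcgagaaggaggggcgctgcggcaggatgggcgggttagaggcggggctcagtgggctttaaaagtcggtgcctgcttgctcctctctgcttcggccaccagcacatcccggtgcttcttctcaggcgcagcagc
Capitals mark matches, on either strand, to 3 motifs chosen after the Peg3 window was read: TGACGTCA, the cyclic AMP response element, CCAAT, the CCAAT box (ATTGG where it lies on the other strand), and GGAATG, the motif bound by TEAD factors. The Peg3 window held 1 match to the first, 2 to the second and 1 to the third, none overlapping another, and all lie in the stretch shared with Usp29. Of 32851 promoter windows, 1.79% hold TGACGTCA, 37.4% hold CCAAT and 14.7% hold GGAATG. The Grb10 and Mest windows shown held none of these letters, and a match is a description, not a bound site. The windows hold 13 CpG for Peg3, 45 for Grb10 and 17 for Mest, where the median window holds 7. Of all windows 37.9%, 1.93% and 31.4% hold at least as many, in that order. The Grb10 and Mest windows were picked for the most CpG, so a high count is built in. The other Grb10 window holds 9 and another Mest window 8.

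Signals are the authors' linear probe set intensities, called signal units here. Cultured and fresh arrays are on different scales: the median signal was 7.75 to 8 on the cultured arrays and 64.1 to 64.8 on the fresh ones, and 53.9% to 54.3% against 0.102% to 0.140% of probe sets lay below 10. Levels are therefore set side by side only within a condition, and across conditions only the percentile of a probe set within its own array is given. On the cultured arrays signals below 10 are called the floor here, although the lowest signals there were 2.04 to 2.06. A probe set was tested in a condition where its signal exceeded the median of the array on 2 or more arrays there, and the threshold was a limma adjusted p under 0.05 over all probe sets tested. By this filter 12 of the 20 member probe sets were tested in culture and 7 in fresh cells. Basal keratinocyte markers (Krt5, Krt14, Trp63, Itga6, Itgb4 and Col17a1) lay above the array median on all 10 arrays. Both Rhoa probe sets above the median, 1437628_s_at and 1450632_at, read lower in cultured KO (7628 to 8209 and 10199 to 10811 signal units) than in cultured WT cells (9240 to 11249 and 11512 to 15352). In fresh cells they read 4296 to 4398 and 1875 to 1945 in KO, against 3526 to 4059 and 1443 to 1811 in WT. Where they lie relative to the deleted part is not given in the files used, so they do not check the genotype labels. Fresh KO replicate 2 stood apart. Its hair follicle markers summed to 46175 signal units, against 17711 on KO replicate 1 and 21224 and 20878 on the WT arrays. Of these markers Krt25, Krt27, Krt71, Krt35 and Tchh were highest on KO replicate 2, Krt25 at 10946 against 62, 282 and 75. Krt15, the largest part of the other sums, was not: it read 17436 there, against 17211, 20050 and 20241. Lgr5 was lowest there, at 200 against 228, 266 and 266. The melanocyte markers of KO replicate 2 summed to 4350, against 892, 581 and 439.

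**Figure D1:**
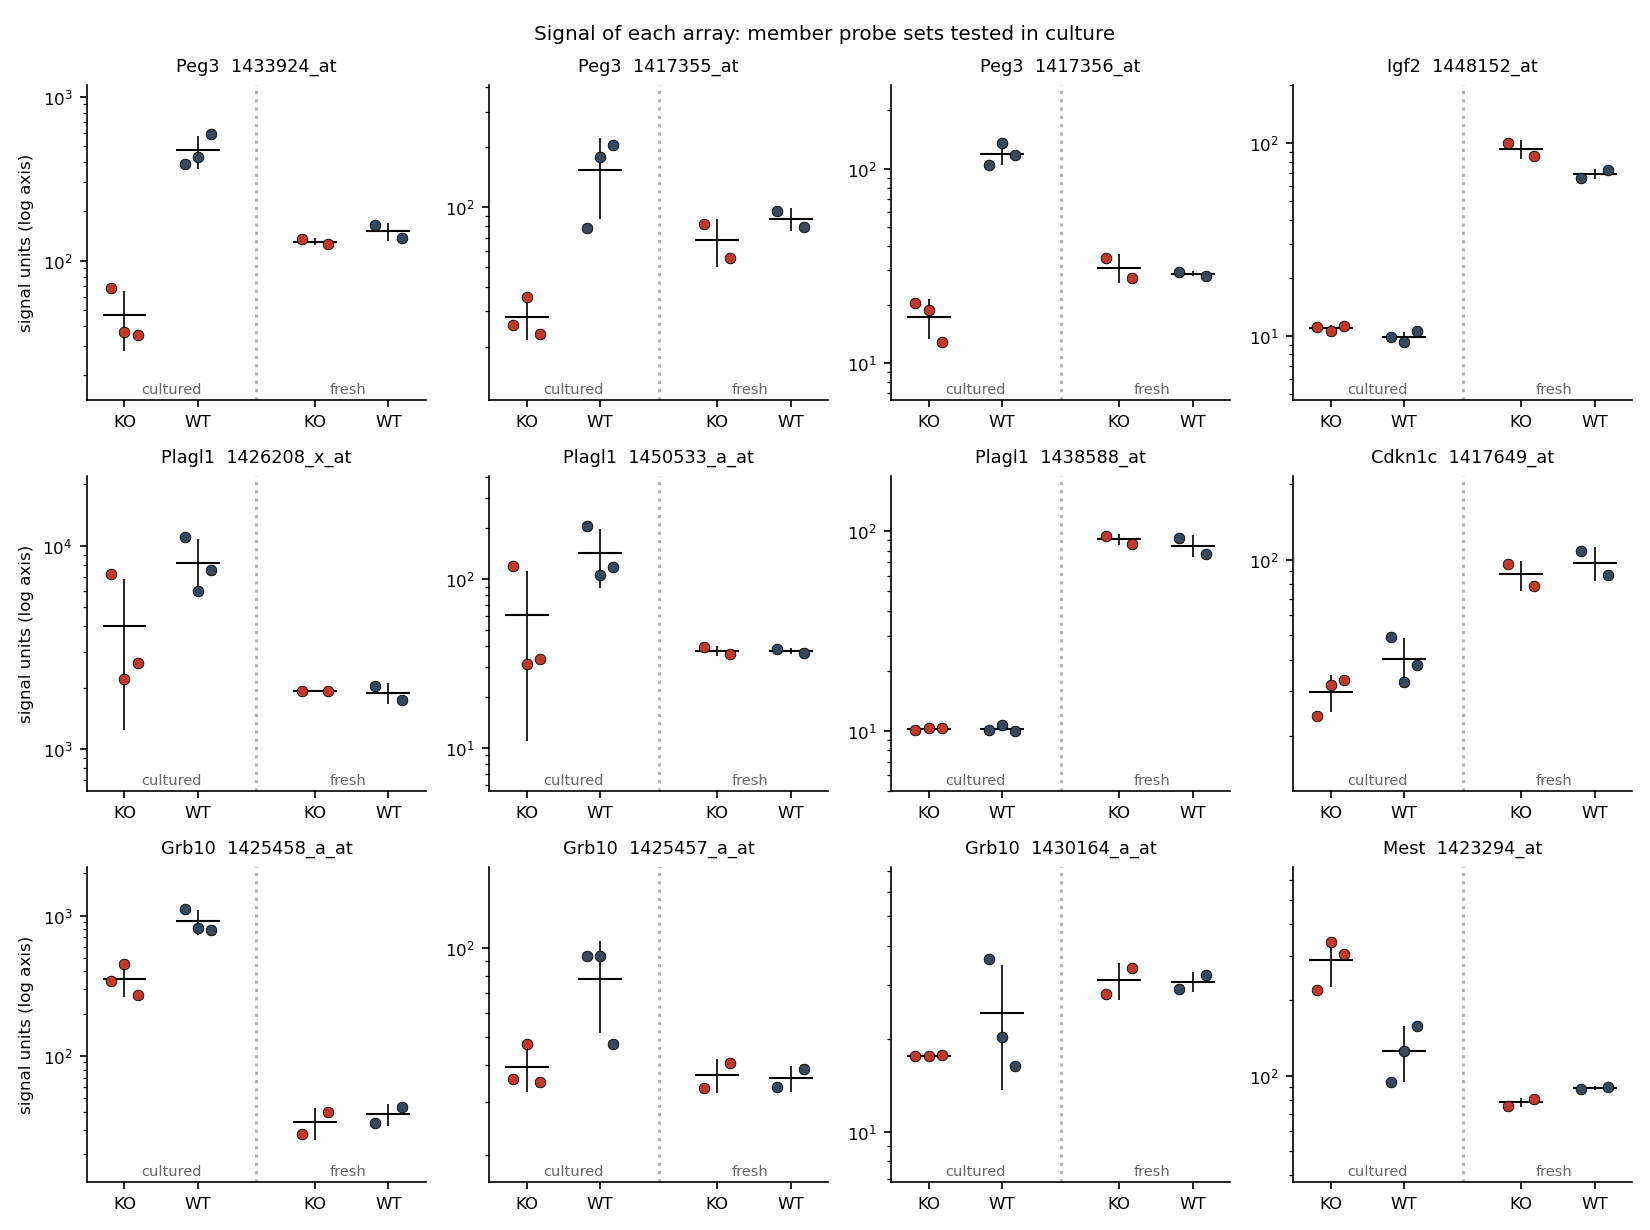
Signal units (log axis, own range in each panel) of the 12 member probe sets tested in culture, 1 point per array, with KO left of WT, cultured cells left and fresh cells right of the dotted line. Horizontal lines are group means and vertical lines 1 SD (n = 3 per cultured group, 2 per fresh group); cultured and fresh signals are on different scales, and 3 Peg3 probe sets, 1 of Grb10 and the 1 of Mest separate cultured KO from cultured WT.

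Peg3 was the member with the widest difference between cultured KO and cultured WT cells. Its leading probe set, 1433924_at, the one with the highest mean over all 10 arrays, read 68.1, 36.9 and 35.1 signal units in cultured KO cells, against 390.3, 426 and 594 in cultured WT cells. The highest KO array thus lay far below the lowest WT array. The group means were 46.7 ± 18.6 and 470.1 ± 108 (SD, n = 3 each), a log2 change of -3.38 (SE 0.31), which is 10.4-fold lower in KO. In such bulk samples, fewer cells of a type and less RNA per cell cannot be told apart.

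A second Peg3 probe set, 1417356_at, read 20.4, 18.7 and 12.8 in cultured KO cells, against 105, 136 and 118 in cultured WT cells (log2 change -2.81, SE 0.20). The third, 1417355_at, read 25.6, 35.4 and 23.1 in KO, against 78.9, 178 and 206 in WT (log2 change -2.37, SE 0.40). Neither let the groups overlap, and WT replicate 1 was the lowest WT array on all 3. Among all 22682 probe sets tested in culture, ordered from the most negative log2 change, these 3 stood at places 2, 6 and 13. The remaining Peg3 probe sets, 1447731_at and 1447732_x_at, read 4.50 to 4.61 on every cultured array, KO and WT alike, at the floor of these arrays.

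In culture 2 of the 12 member probe sets tested passed the threshold, both lower and both of Peg3 (1433924_at and 1417356_at), where 0.0926% of all probe sets tested were called lower and 0.273% in either direction. As Peg3 was chosen on this contrast, nothing is read from that count. It was 0 without KO replicate 2, without KO replicate 3, without WT replicate 2 or without WT replicate 3. Over those settings and those without either replicate 1 array, the log2 change of the leading probe set was between -3.68 and -3.20. This range comes from the same contrast, and nothing is read from it either. The suprabasal keratinocyte markers (Krt1, Krt10, Ivl, Lor, Dsc1 and Dsg1a, all tested) went the opposite way to Peg3. Their summed signal was 4499 to 6870 units in cultured KO, against 1430 to 1717 in cultured WT. Of the 6, 2 were called higher, Ivl and Dsc1, where 0.181% of all probe sets tested were. Krt1 read 26.7, 8.23 and 5.13 in KO, against 18.7, 4.3 and 4.53 in WT, with overlap and partly at the floor. The part of these markers in the Peg3 difference was not tested.

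In fresh cells Peg3 did not pass the threshold on either probe set tested. The leading one read 136 and 126 signal units in fresh KO cells, against 164 and 138 in fresh WT cells. The groups did not overlap, and the log2 change of -0.20 (SE 0.15, limma adjusted p = 0.610) did not pass. Probe set 1417355_at read 81.9 and 55.4 in fresh KO, against 95.7 and 79.5 in fresh WT, with overlap (log2 change -0.37, SE 0.23, limma adjusted p = 0.546). Without fresh KO replicate 2 the log2 changes of these probe sets were -0.15 and -0.09, and without fresh KO replicate 1 they were -0.26 and -0.65. Probe set 1417356_at, below the array median on all fresh arrays and so not tested, read 34.7 and 27.4 in KO, against 29.6 and 28.2 in WT. The probe sets 1447732_x_at and 1447731_at read 12.1 and 11.3, and 10.6 and 11.25, in fresh KO, against 10.3 and 10.5, and 9.49 and 10.4, in fresh WT, among the lowest signals of these arrays.

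The KO effect of the leading probe set thus differed by -3.17 on the log2 scale between culture and fresh cells (SE 0.34), and that of 1417355_at by -1.998 (SE 0.46). Both differences contain the culture contrast and are given as a description. They also set log2 changes from arrays on different scales against each other, and the part of the scales in them was not tested. Percentiles within each array set the conditions side by side. The leading probe set stood at percentile 61.2 to 64.5 of cultured KO arrays, 76.1 to 80.0 of cultured WT arrays, 62.1 to 63.2 of fresh KO arrays and 63.8 to 65.5 of fresh WT arrays. For this probe set the cultured WT arrays lay above all others, and the range of cultured KO overlapped both fresh ranges. The other 2 Peg3 probe sets tested in culture differed in the second point, with cultured KO above all fresh arrays. Probe set 1417355_at stood at 59.3 to 61.0 in cultured KO, 65.2 to 71.2 in cultured WT, 46.1 to 55.1 in fresh KO and 54.4 to 57.4 in fresh WT. For 1417356_at these ranges were 56.2 to 58.9, 66.8 to 68.5, 21.5 to 31.3 and 22.6 to 25.7.

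Usp29, a ubiquitin-specific protease gene that shares its promoter region with Peg3, and Zim1, a maternally expressed zinc finger gene of the same imprinted domain, gave no reading above the array median. The Usp29 probe sets 1419237_at and 1427551_at read 6.83 to 6.99 and 4.23 to 4.27 signal units in cultured KO cells, against 6.82 to 7.11 and 4.23 to 4.29 in cultured WT cells. The Zim1 probe set, 1421405_at, read 4.46 to 4.51 in cultured KO and 4.45 to 4.54 in cultured WT cells. These values lie at the floor of the cultured arrays, and whether a lower level could be read there was not tested. In fresh cells Usp29 1419237_at read 24.3 and 22.8 in KO, against 20.4 and 20.7 in WT, Usp29 1427551_at 35.1 and 39.4 in KO, against 33.05 and 35.3 in WT, and Zim1 22.0 and 26.1 in KO, against 21.3 and 23.8 in WT, all below the array median.

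**Figure D2:**
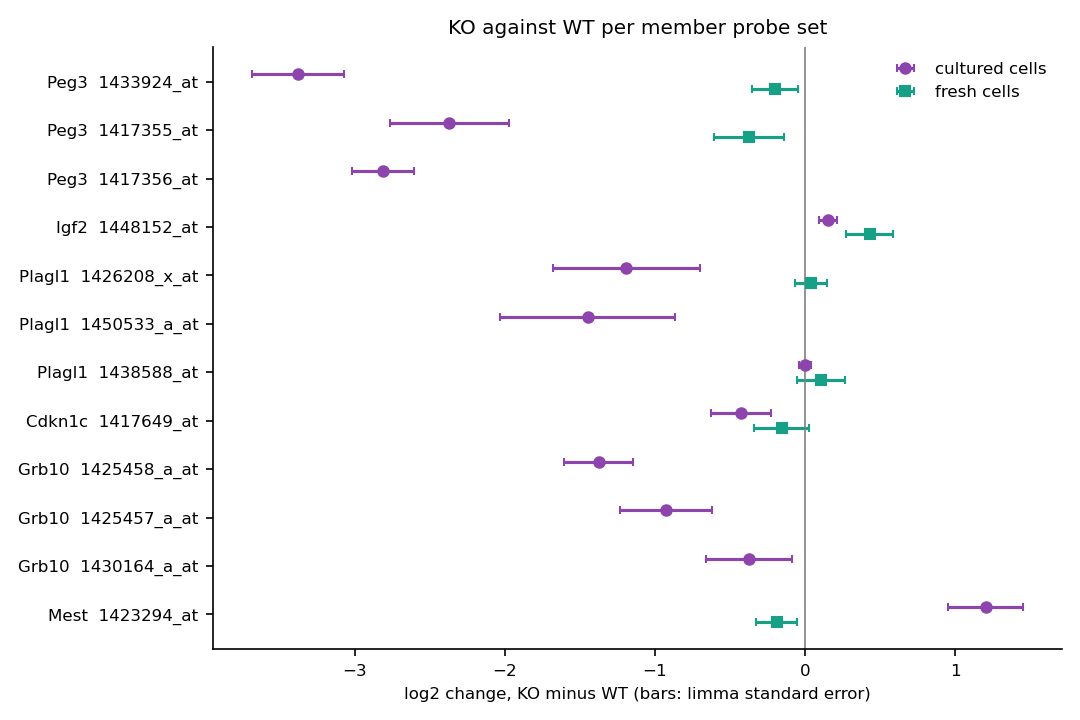
Log2 change of KO against WT for each member probe set that was tested, with limma's standard error; circles are cultured cells and squares fresh cells, and 5 probe sets tested in culture have no square because they were not tested in fresh cells. The 3 Peg3 probe sets lie between -3.38 and -2.37 in culture, and the 2 tested in fresh cells at -0.20 and -0.37.

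Plagl1, which encodes a zinc finger factor also called Zac1 that restrains proliferation and activates other imprinted genes, was split among the cultured KO arrays. Probe set 1426208_x_at read 7265, 2208 and 2638 signal units in cultured KO cells, against 11068, 5994 and 7581 in cultured WT cells. KO replicate 1 lay among the WT arrays and the other 2 KO arrays below all of them, so the groups overlapped. Probe set 1450533_a_at read 119.6, 31.2 and 33.4 in KO, against 205, 106 and 117 in WT, and again KO replicate 1 alone lay among the WT arrays. Replicate 1 was the highest array of both genotypes on both probe sets. The log2 changes were -1.19 (SE 0.49) and -1.45 (SE 0.58), and leaving out 1 array gave -1.72 to -0.86 and -2.08 to -1.11, the largest in size without KO replicate 1 and the smallest without KO replicate 2. The ending x_at marks a probe set with probes that can also match other transcripts. The third, 1438588_at, read 10.15, 10.36 and 10.30 in KO, against 10.15, 10.65 and 10.04 in WT, near the floor, and showed no separation (log2 change -0.0010).

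In fresh cells the Plagl1 probe set 1426208_x_at read 1934 and 1924 in KO, against 2037 and 1729 in WT. Both KO arrays lay between the WT arrays, with a log2 change of 0.04 (SE 0.11, limma adjusted p = 0.900). This probe set stood at percentile 90.5 to 96.3 of cultured KO, 95.6 to 97.5 of cultured WT, 94.6 on both fresh KO and 93.9 to 95.0 of fresh WT arrays. Probe set 1438588_at read 95.1 and 86.8 in fresh KO, against 92.3 and 77.3 in fresh WT (log2 change 0.11, SE 0.16, limma adjusted p = 0.808). Probe set 1450533_a_at, not tested in fresh cells, read 39.3 and 35.7 in KO, against 38.6 and 36.5 in WT.

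Grb10 encodes an adaptor protein that binds the insulin and IGF1 receptors and dampens their signal, and it is expressed from the maternal allele in most mouse tissues. Its leading probe set, 1425458_a_at, read 341, 451 and 270.1 signal units in cultured KO cells, against 1118, 818 and 793 in cultured WT cells. All KO arrays lay below all WT arrays, with means of 354 ± 91.2 and 909.8 ± 181 (SD, n = 3 each) and a log2 change of -1.37 (SE 0.23). Probe set 1425457_a_at read 35.9, 47.4 and 35.2 in KO, against 93.3, 94.0 and 47.1 in WT, where KO replicate 2 overlapped WT replicate 3 (log2 change -0.93, SE 0.31). Probe set 1430164_a_at read 17.6 to 17.7 in KO and 36.2, 20.2 and 16.3 in WT, and its spread lay in the WT arrays alone (log2 change -0.37, SE 0.29). None of the 3 was tested in fresh cells, where they lay below the array median: the leading one read 27.7 and 39.8 in KO, against 33.5 and 43.3 in WT. Probe set 1425457_a_at read 33.65 and 40.6 in fresh KO, against 33.7 and 38.8 in fresh WT, and 1430164_a_at 28.0 and 34.0 in KO, against 29.0 and 32.2 in WT. The percentile of the leading probe set, 1425458_a_at, was 73.5 to 77.6 in cultured KO and 82.6 to 85.3 in cultured WT. In fresh cells it was 22.5 to 35.9 in KO and 30.6 to 38.6 in WT.

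Mest, a paternally expressed gene for a protein of the alpha/beta hydrolase fold, went the other way in culture. Its probe set, 1423294_at, read 219, 339.8 and 304 signal units in cultured KO cells, against 94.6, 125 and 158 in cultured WT cells. No KO array reached down to the WT arrays, and the means were 288 ± 61.9 and 126 ± 31.6 (SD, n = 3 each), 2.30-fold apart (log2 change 1.20, SE 0.25). In fresh cells it read 76.0 and 80.3 in KO, against 88.1 and 90.2 in WT (log2 change -0.19, SE 0.14, limma adjusted p = 0.594), so the direction there was the opposite, short of the threshold. The difference between the conditions was 1.39 on the log2 scale (SE 0.29), a description, since it contains the culture contrast. It too rests on arrays of different scales. Markers of melanocytes (Tyrp1, Dct, Pmel, Mlana and Tyr) were also higher in cultured KO, with a summed signal of 418, 780 and 1315 units, against 217, 475 and 259 in WT. Tyr lay below the array median on all 6 arrays, and none of the 4 tested was called. In fresh cells, where Mest was lower in KO, the melanocyte markers summed to 892 and 4350 units in KO, against 581 and 439 in WT. The suprabasal markers given above were higher in cultured KO too. The part of either list in the Mest difference was not tested.

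Cdkn1c encodes p57, a maternally expressed inhibitor of cyclin-dependent kinases. Its probe set, 1417649_at, read 24.0, 31.8 and 33.3 signal units in cultured KO cells, against 49.5, 32.7 and 38.2 in cultured WT cells, with overlap (log2 change -0.43, SE 0.20). In fresh cells it read 95.7 and 78.8 in KO, against 108 and 86.8 in WT, again with overlap (log2 change -0.16, SE 0.18, limma adjusted p = 0.749). In both conditions arrays of KO and WT thus shared part of their range.

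Igf2, the paternally expressed growth factor, and Dlk1, a paternally expressed membrane protein related to Notch ligands, were near or at the floor in culture. The Igf2 probe set 1448152_at read 10.5 to 11.2 signal units in cultured KO and 9.29 to 10.5 in cultured WT cells (log2 change 0.15, SE 0.06), and 1415931_at read 7.16 to 7.21 in KO and 7.17 to 7.24 in WT. In fresh cells 1448152_at read 100.3 and 85.8 in KO, against 65.9 and 72.0 in WT. Both KO arrays lay above both WT arrays, by a log2 change of 0.43 (SE 0.16), and the limma adjusted p of 0.357 did not pass. Probe set 1415931_at, below the array median, read 20.1 and 21.6 in fresh KO, against 19.01 and 18.03 in fresh WT. Fibroblast markers (Col1a1, Col1a2, Col3a1, Dcn, Lum, Pdgfra, Pdgfrb and Col5a1) had a summed signal of 601 and 1504 units in fresh KO, against 435 and 422 in fresh WT. Most of the KO replicate 2 sum was Dcn alone, at 1012. Of the 8, 5 were tested, 4 higher and Pdgfrb lower in KO (log2 change -0.12), and none was called. The log2 change of Igf2 was 0.54 without KO replicate 2 and 0.32 without KO replicate 1, and the part of these markers in it was not tested. The Dlk1 probe sets read 4.36 to 5.81 on all cultured arrays. In fresh cells 1442724_at read 43.9 and 36.9 in KO, against 32.85 and 36.8 in WT, and 1449939_s_at 40.6 and 41.1 in KO, against 41.2 and 37.1 in WT, all below the array median.

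**Figure D3:**
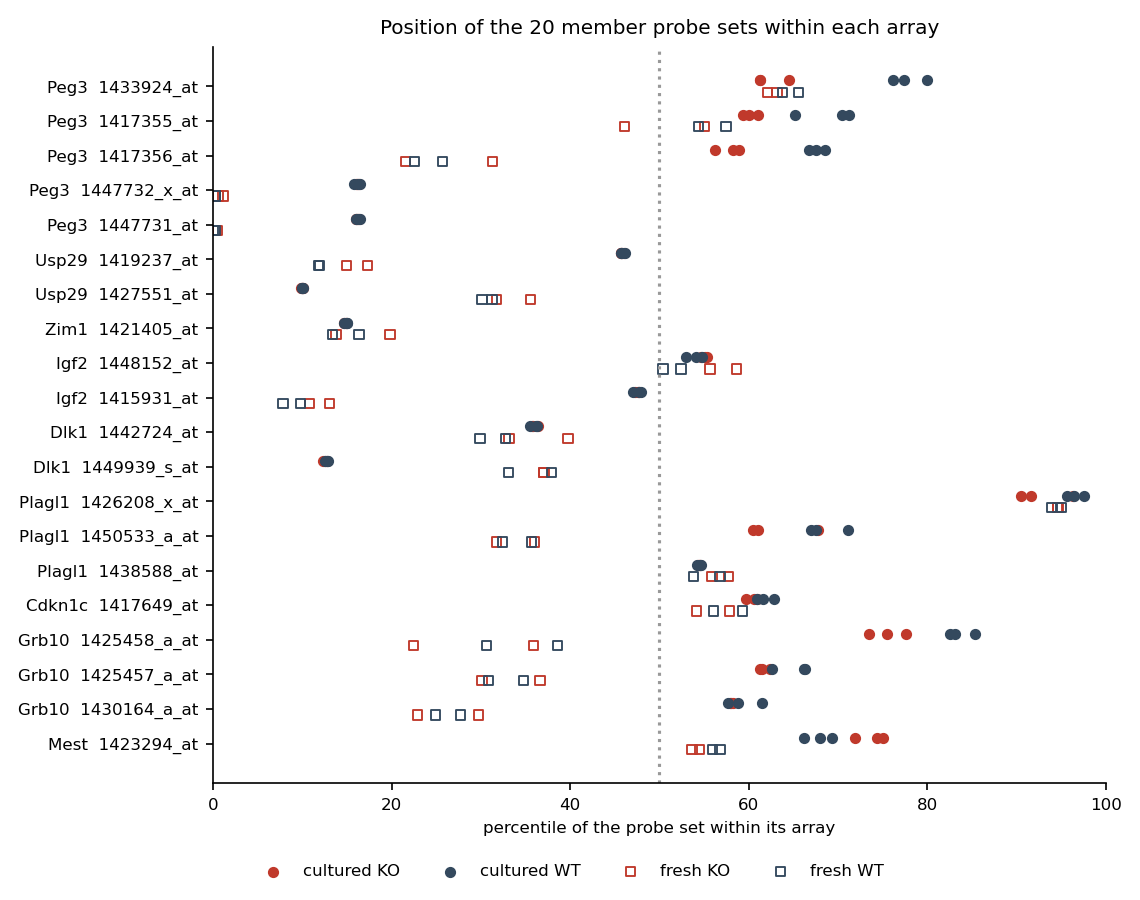
Percentile of each of the 20 member probe sets within its own array, with 1 symbol per array; filled circles are cultured and open squares fresh arrays, red KO and blue WT, and the dotted line is the array median. Cultured WT arrays hold Peg3 1433924_at at 76.1 to 80.0, above the 61.2 to 65.5 of the 7 other arrays, and both Usp29 probe sets and Zim1 lie left of the median on all 10.

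The counts of separated groups are set here against all probe sets. In culture the groups did not overlap for 2 of the 9 tested probe sets of members other than Peg3, where 22.3% of all probe sets tested showed no overlap. Grb10 1425458_a_at was the one with KO below WT, as in 12.2% of all, and Mest the one with KO above WT, as in 10.1% of all, and nothing is read from these counts. In fresh cells the groups did not overlap for 3 of the 7 member probe sets tested, Peg3 included, where the share was 46.9% of all. Igf2 was the one with KO above WT, and Peg3 1433924_at and Mest had KO below WT, where 23.5% of all probe sets lay each way. No member was called in fresh cells, where limma called 0.0% of 22893 probe sets and 12.9% had an unadjusted p under 0.05. Igf2 1448152_at was the 1 member probe set among them, with an unadjusted p of 0.0374. The difference between the conditions was called for 0.0% of 18773 probe sets, and 13.5% had an unadjusted p under 0.05. Nothing is read from it for the members, since it contains the culture contrast.

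Lists of other imprinted genes, named with earlier results known, were read by the leading probe set of each gene. Of 25 genes listed as paternally expressed 10 were tested in culture, and 8 of them were higher and 2 lower in KO. None passed the threshold (median log2 change 0.12, against -0.01 over all probe sets tested). The 2 lower were Mkrn3 at -0.12 and Gnas at -0.10. The lists go by gene and not by transcript, and the arrays do not tell the alleles apart, so Gnas signal here is not shown to be paternal. Ndn, which encodes necdin, a growth suppressor, read 409.7 ± 30.3 signal units in cultured KO and 171 ± 44.6 in cultured WT cells (SD, n = 3 each, log2 change 1.29, limma adjusted p = 0.0979). Slc38a4, an amino acid transporter gene, followed at a log2 change of 0.88 (limma adjusted p = 0.463). In fresh cells 6 were tested, 3 higher and 3 lower (median 0.04, against 0.00 over all), with Rasgrf1 at -0.60 and Mcts2 at 0.28 (limma adjusted p = 0.376 and 0.402).

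Of 29 genes listed as maternally expressed 18 were tested in culture, 11 higher and 7 lower in KO, and none passed (median log2 change 0.12). The arrays do not show whether genes of either list are imprinted in keratinocytes. Atp10a, a gene for a phospholipid flippase, was at 0.47 and Blcap at 0.32 (limma adjusted p = 0.154 and 0.175). In fresh cells 17 were tested, 9 higher and 8 lower (median 0.06). Phlda2, which restrains placental growth in mice, read 297 ± 53.9 in fresh KO and 156 ± 14.9 in fresh WT cells (SD, n = 2 each, log2 change 0.92, limma adjusted p = 0.274), and Ascl2, a transcription factor gene, was at -0.40 (limma adjusted p = 0.339). Dcn, a collagen-binding proteoglycan gene that is also among the fibroblast markers, read 137 and 1012 in fresh KO, against 102 and 62.7 in fresh WT, with the widest log2 change of the list and limma's widest standard error in it. Each list thus held genes on both sides of 0 in both conditions.

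The IGF pathway, in which Igf2 and Grb10 act, had 10 of 17 listed genes tested in each condition, and none passed. In culture 3 were higher and 7 lower (median log2 change -0.29), and in fresh cells 5 higher and 5 lower (median -0.23). Igfbp3, a binding protein that holds IGFs outside the cell, was at -2.10 in culture and -1.65 in fresh cells (limma adjusted p = 0.0913 and 0.244), with no overlap of the groups in either. Igfbp7, a secreted protein of the same superfamily, read 1975 ± 404 in cultured KO and 3283 ± 289 in cultured WT cells (SD, n = 3 each, log2 change -0.75, limma adjusted p = 0.151). In fresh cells it lay on the other side, at 1119 ± 166 in KO and 523 ± 261 in WT (log2 change 1.19), short of the threshold. In fresh cells Irs1, the adaptor that couples the insulin and IGF1 receptors to PI3 kinase, read 406 ± 33.1 in KO and 789.6 ± 127 in WT (log2 change -0.95, limma adjusted p = 0.244).

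A further list held 15 genes that act in setting, keeping or removing methylation, with Tet1, Tet2 and Tet3 for removal. In culture 10 were tested, 3 higher and 7 lower in KO (median log2 change -0.14). In fresh cells 12 were tested, 7 higher and 5 lower (median 0.04). None passed the threshold in either condition. Dnmt1, the methyltransferase that copies methylation at replication, read 1811 ± 61.8 in cultured KO and 2481 ± 192 in cultured WT cells (log2 change -0.45, limma adjusted p = 0.102). Zfp445, a zinc finger gene that protects imprints, was at 0.25 (limma adjusted p = 0.212). In fresh cells Uhrf1, the partner that brings Dnmt1 to replicating DNA, was at 0.66 and the demethylase gene Tet1 at -0.38 (limma adjusted p = 0.356 and 0.357). Of 5 genes of the death pathway in which mouse Peg3 has been placed, 2 had a probe set under their symbol alone. These were Siah1a and Traf2, at 0.08 and 0.27 in culture and at -0.04 and -0.03 in fresh cells. For Siah1b, Bax and Trp53 none was found by this rule, so they were not read.

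**Figure D4:**
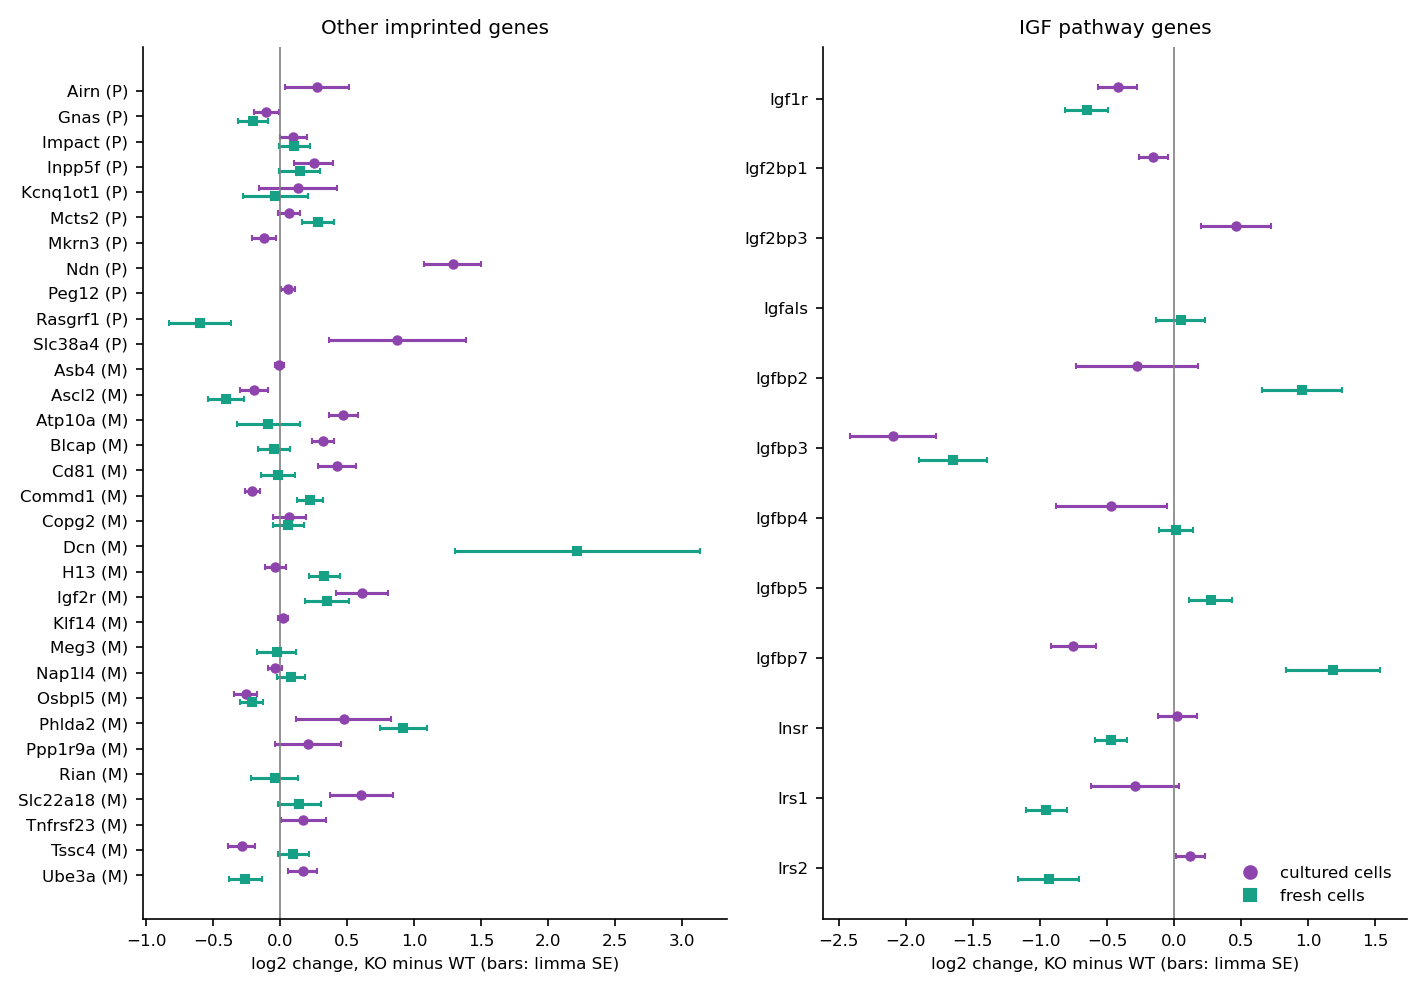
Log2 change of KO against WT, with limma's standard error, for the tested genes of the imprinted lists (left) and of the IGF pathway (right). P marks genes listed as paternally and M as maternally expressed. Circles are cultured and squares fresh cells. Ndn stands at 1.29 in culture and Igfbp3 at -2.10 in culture and -1.65 in fresh cells, and none of these genes passed the threshold.

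Of 10993 genes with a tested leading probe set, the 5 whose log2 signal was most like that of Peg3 1433924_at over the 6 cultured arrays were Diaph3 (Pearson r = 0.998), Dnph1 (0.997), Stil (0.997), Dot1l (0.995) and Mafg (0.994). Diaph3 encodes a formin that assembles actin filaments, and Stil a protein of centriole duplication. The 6 points share the genotype split, and the log2 changes of these genes were between -0.49 and -0.18, against -3.38 for Peg3. Diaph3 read 1438, 1307 and 1297 signal units in cultured KO, against 1820, 1797 and 1873 in cultured WT cells, a log2 change of -0.44. Dnph1 was at -0.49, Dot1l, a histone methyltransferase gene, at -0.47, Mafg, a small Maf factor gene, at -0.29 and Stil at -0.18. In fresh cells the 5 genes were at 0.16, 0.02, -0.08, -0.01 and 0.40, in the order Diaph3, Dnph1, Dot1l, Mafg and Stil.

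The remaining marker lists bear on which cells could have carried the members. On the cultured arrays 6 of 8 fibroblast markers, all 5 Langerhans and myeloid, all 4 endothelial and all 3 adipocyte markers with a probe set of their own lay above the array median on no array. In fresh cells all 5 Langerhans and myeloid markers lay above it on every array, with a summed signal of 11925 and 5572 units in KO, against 18165 and 14302 in WT, and 3 of 4 endothelial markers lay above it on none. Of 5 muscle markers 1 was tested in culture and 2 in fresh cells, and of 3 T cell markers with a probe set of their own 1 and 3, with none called. The T cell marker tested in culture, Cd3e, read 6479 to 6822 on the cultured arrays, where Cd3g and Cd3d read 4.49 to 5.01. The source of this Cd3e signal was not tested. Hair follicle markers had 2 of 7 tested in culture and 7 of 7 in fresh cells, and melanocyte markers 4 of 5 in both, none called.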

How the data were processed

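Expression was measured on 10 Affymetrix Mouse Genome 430 2.0 arrays, after amplification with a 3' IVT kit, per the labels' protocols. The values deposited by the authors are linear intensities, 1 for each probe set on each array. MAS5, a program that summarises probe brightness, is named per the submitters' processing notes; version and scaling: not given in the sources used here. Groups came from the sample titles. Gene symbols are those of the platform annotation after an update by Entrez ID. Of 45037 probe sets, 34945 had 1 symbol, 932 several and 9160 none. Lists and markers were read only on probe sets with 1 symbol, so a listed gene without one may still be on the array. Promoter sequences are from RefSeq, GRCm38.p6.

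The log2 of each intensity was taken without an offset. KO and WT were compared per condition with limma 3.58.1 in R 4.3.3 (lmFit, eBayes with a trend, 2-sided) with Benjamini-Hochberg adjustment over all probe sets that passed the filter of 2 arrays above the median, and checked on simulated data. The difference between conditions used both moderated standard errors. Group values are mean ± SD, and SE is limma's. The number of arrays limits the precision. Alternatives were other filters, scalings, offsets, variance settings, a replicate block, 1 fit over all arrays and leaving out arrays. The members and lists were chosen with earlier results of these data known. The text names all member probe sets, list genes past the threshold or else the 2 with the smallest p per condition, and the 5 genes most like Peg3.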

Additional observations from a re-analysis of the deposited data

How the results depend on the processing

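With 2 or 3 arrays a group, counts of calls over all probe sets depended on the setting. In culture 62 were called, against 2 with no filter, 7 with no mean-variance trend, 128 with 75th percentile centring, 299 with array weights, 395 in 1 fit over all 10 arrays, 0 at an adjusted p under 0.01, and 0 to 94 when 1 array was left out. Leaving out both cultured replicate 1 arrays, chosen after seeing the data, gave 301. In fresh cells the 0 calls became 393 in 1 fit over all arrays and 0 to 1003 without 1 array, with 1003 without KO replicate 1 and 12 without KO replicate 2. The difference between conditions had 0 calls, and 253 in 1 fit. The cause of these moves was not tested.

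No alternative called a member in fresh cells. In culture 2 member probe sets were called, 5 in 1 fit over all arrays (3 of Peg3, Grb10 1425458_a_at and Mest), 5 without both replicate 1 arrays (3 of Peg3, 2 of Plagl1) and 0 with no filter. The log2 changes of the 3 Peg3 probe sets in culture kept their sign in each of 17 alternatives, between -3.81 and -1.87. Peg3 was chosen, and the other members grouped with it, with the culture contrast known. Nothing is therefore read from these culture counts or from the kept sign. In fresh cells, leaving out 1 array gave log2 changes of -0.0784 (without WT replicate 2) to 0.158 for Plagl1 1426208_x_at, of -0.0222 (without WT replicate 2) to 0.234 for Plagl1 1438588_at and of -0.312 to 0.0001 (without WT replicate 1) for Cdkn1c, so each crossed 0, none called.

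Replicate numbers are shared between KO and WT. Deviations from the group means correlated at 0.32, 0.081 and 0.249 for cultured replicates 1, 2 and 3. KO replicate 1 was at -0.191 and -0.260 with WT replicates 2 and 3, and KO replicate 3 at -0.300 and 0.172 with WT replicates 1 and 2. KO replicate 2 was at -0.125 and 0.094 with WT replicates 1 and 3. Cultured replicates 1 and 3 thus went most with their own number, and replicate 2 did not. The fresh values, -0.055 for equal numbers, are all of 1 size with 2 arrays a group and decide nothing. The numbers were not taken as pairs in the main fits, and a shared batch was not tested. With a replicate block 17 probe sets were called in culture, 7 of them among the 62, and no member.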
